A study of Sus scrofa with 6 samples.

Results

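Myosin isoforms of the ventricular myocardium were examined in minipigs with chronic pressure overload. Of the 10 genes listed for this purpose (MYH6, MYH7, MYH7B, MYL2, MYL3, MYL4, MYL7, MYL6, MYL9 and MYLK3), 7 were found by their name among the 13288 genes of the table. MYL6 had no name there and was found by its gene identifier, which gave 8 rows. No row was named MYH6 or MYL7, so neither gene was analysed here on its own. The animals were male Tibetan minipigs, of which 3 had sham surgery, a thoracotomy without constriction, and 3 had descending aortic constriction (DAC), which raises the pressure that the left ventricle works against. Ventricular tissue was collected 12 weeks after surgery, and the labels do not name the chamber. Age is not given in the sources used here. Each library held 1 animal, and the minipigs are called sham replicates 1 to 3 and DAC replicates 4 to 6.

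Myosin II is the motor of muscle and of the cell's contractile cortex. A pair of heavy chains forms the rod and the motor heads, and each head carries an essential and a regulatory light chain. In the heart, MYH6 encodes the fast α heavy chain and MYH7 the slow β heavy chain, which predominates in the ventricle of large mammals. MYL2 and MYL3 are the regulatory and essential light chains of the ventricle, MYL7 and MYL4 those of the atrium, and MYL9 and MYL6 those of smooth muscle and other cells. MYLK3, the cardiac light chain kinase, phosphorylates the regulatory light chain MYL2. In rodents, pressure overload is known for a shift from the α to the β heavy chain, and atrial light chains can reappear in the diseased ventricle.

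Values are FPKM, which scale the fragments of a gene to its transcript length and to the fragments mapped in that sample, so levels can be set side by side between genes. The sum of FPKM was from 281377 to 308771 per sample, depth is unknown, and no counting error is given. The mitochondrially encoded genes held 24.0% to 25.3% of this sum in the sham group, 27.1% to 27.2% in DAC replicates 4 and 6 and 32.8% in DAC replicate 5. The groups were compared on log2(FPKM + 1) with limma's moderated test in the genes that reached 1 FPKM in 3 or more samples. A gene with an unadjusted P under 0.05 was called differentially expressed, and the adjusted P is from the Benjamini-Hochberg method over the 11029 genes tested. On this scale the difference of a weakly expressed gene, such as MYL4, is smaller than its fold. In bulk tissue, fewer cells of a type and less RNA per cell cannot be told apart. The summed level of 7 cardiomyocyte markers outside the myosin genes was from 9720 to 10502 FPKM in the sham group and from 9489 to 11813 FPKM in the DAC group.

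The row named MYH7 could not be assigned to the β heavy chain alone. It spanned 58788 bases of chromosome 7 (from 75650445 to 75709232, genome build susScr11, plus strand), whereas the RefSeq gene MYH7 of the assembly Sscrofa11.1 spans 22068 bases (from 75650841 to 75672908). The row also covered the microRNA gene MIR208B, which lies inside MYH7, a RefSeq protein-coding gene without a name of its own (LOC100736765, from 75677666 to 75704486), and part of CMTM5. The same identifier, ENSSSCG00000002029, is paired with the name MYH6 in a separate table of gene identifiers. In mammals the genes for the α and β heavy chains are neighbours of nearly identical coding sequence. The row is therefore called the MYH7 row below, and no ratio of MYH6 to MYH7 was formed. The row taken as MYL6 (ENSSSCG00000039506, chromosome 5 from 21486312 to 21563425) spanned 77114 bases against 3193 for the RefSeq gene, and overlapped 5 further RefSeq protein-coding genes, among them MYL6B. It also overlapped 6 other rows of the table, of which 3 had levels near or above its own 23.8 to 30.9 FPKM. These were ENSSSCG00000033310 at 554 to 691 FPKM, ENSSSCG00000000377 at 37.5 to 48.1 FPKM and SMARCC2 at 26.5 to 31.1 FPKM, so the level of the MYL6 row and its ratio with MYL9 are uncertain. How shared fragments were assigned is not given in the sources used here. Among the other members, the MYL3 row spanned 36283 bases against 5346 for the RefSeq gene, and overlapped the RefSeq gene LOC100516643. It also overlapped an unnamed row of 0.131 to 1.98 FPKM. The MYL2 row spanned 16878 bases against 7896 for the RefSeq gene, and overlapped the RefSeq protein-coding gene CCDC63. The levels of MYL3 and MYL2, and the ratios formed with them, are thus also uncertain to an extent that was not tested. MYL9 overlapped TGIF2, at 0.787 to 2.002 FPKM.

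**Figure D1:**
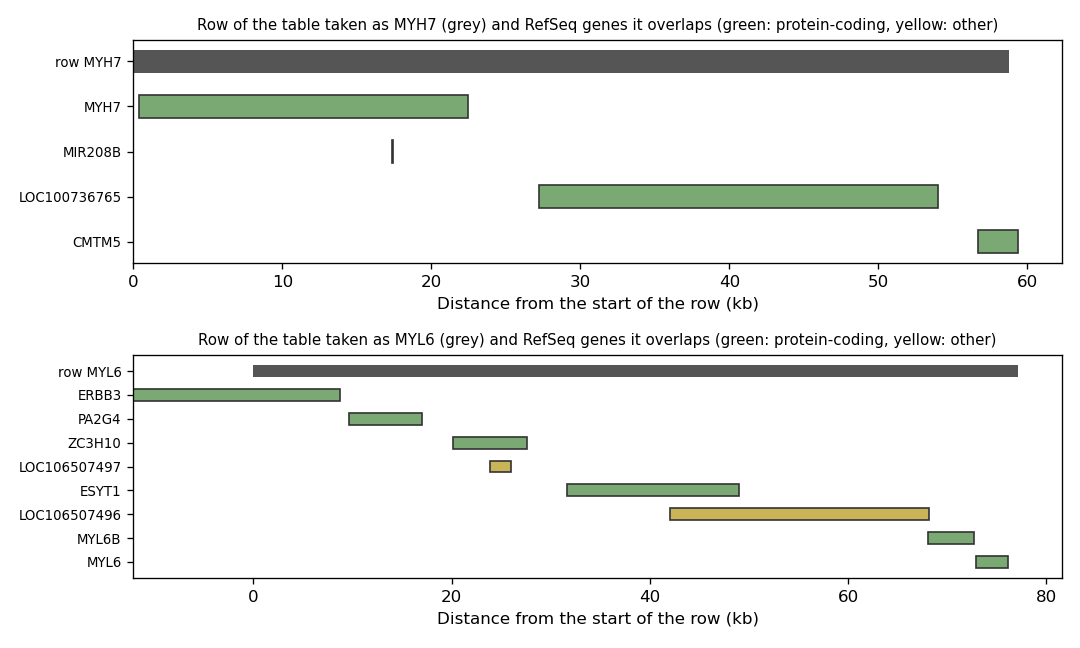
Span of the rows taken as MYH7 and MYL6 (grey) above the RefSeq genes that they overlap, with the distance from the start of the row in kb on the horizontal axis. The MYH7 row covers RefSeq MYH7, a second protein-coding gene and part of CMTM5, and the MYL6 row covers 6 protein-coding genes in whole or in part.

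Both groups had the pattern of ventricular muscle, with high levels of the ventricular light chains and little of the atrial MYL4. MYL2 was the highest or the second highest of the 13275 nuclear genes in every sample, and the MYH7 row ranked from 5 to 7. MYL3 ranked from 18 to 34. The 8 myosin rows together made up 3.49% to 3.55% of the nuclear FPKM in the sham group and 3.29% to 3.82% in the DAC group. Without the mitochondrially encoded genes, DAC replicate 5 still had the lowest share and DAC replicate 6 the highest. The next levels were those of MYL9, MYLK3, MYH7B and MYL6, and in every sample MYL4 was the lowest of the 8. The levels of MYLK3 and MYL9 did not overlap in any group, whereas those of MYH7B and MYL6 were close, with the lowest MYH7B value at 33.5 FPKM and the highest MYL6 value at 30.9 FPKM.

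**Figure D2:**
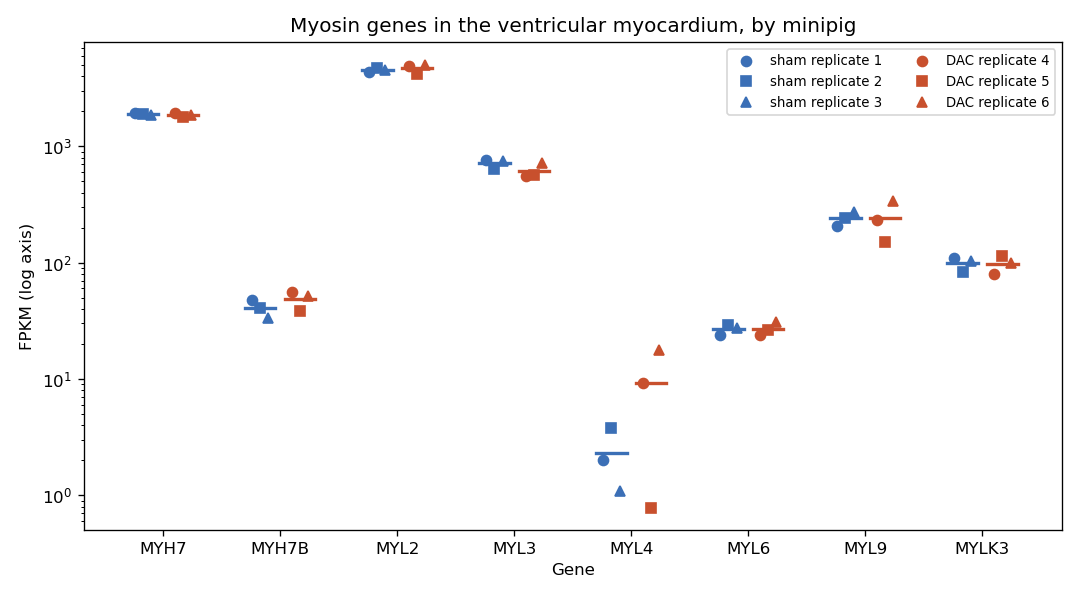
FPKM of the 8 myosin rows in each minipig on a log axis, with sham in blue, DAC in red and a line at the mean of each group (n = 3). The groups overlap for every gene, and MYL4 is the gene whose DAC values spread most, from 0.780 to 17.6 FPKM.

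None of the 8 rows was differentially expressed between DAC and sham minipigs by limma, at the unadjusted threshold or after adjustment. Of all genes tested, 8.51% were called at the unadjusted threshold and 0 at an adjusted P under 0.05. The groups overlapped in all 8 rows, while they did not overlap in 14.9% of all genes tested, with DAC higher in 6.01% and lower in 8.91%. The median log2 fold change of the 8 rows was -0.010, beside -0.016 over all genes tested. Leaving out DAC replicate 5 gave 2 calls (MYL4 and MYH7B, both higher in DAC), and leaving out DAC replicate 6 gave 1 (MYL3, lower in DAC). DAC replicate 5 had the lowest value of all 6 minipigs in the MYH7 row, MYL2, MYL4 and MYL9, and DAC replicate 6 had the highest in MYL2, MYL4, MYL6 and MYL9.

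**Figure D3:**
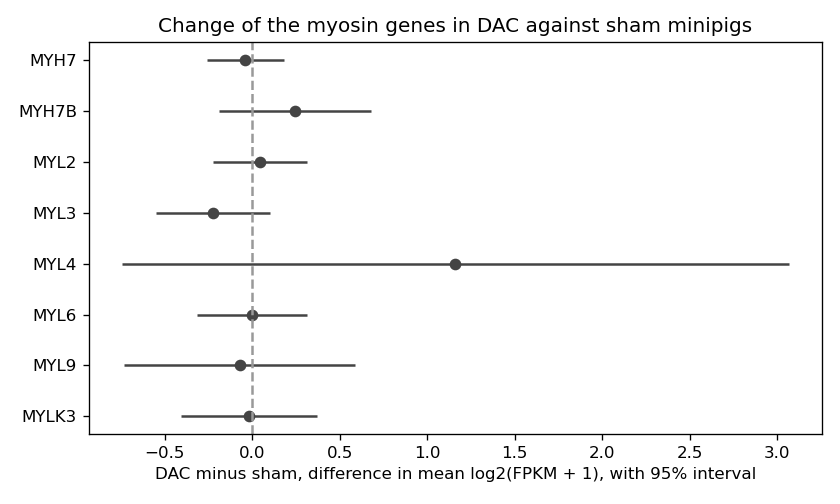
Difference between DAC and sham in mean log2(FPKM + 1) for the 8 myosin rows, with the 95% interval of limma's moderated test as a line (n = 3 per group). Every interval includes 0, that of the MYH7 row is the narrowest and that of MYL4 the widest.

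Among the heavy chains, the MYH7 row was at 1935, 1901 and 1873 FPKM in sham replicates 1 to 3 and at 1927, 1781 and 1845 FPKM in DAC replicates 4 to 6. The mean was 1903 ± 31.1 FPKM in sham and 1851 ± 73.5 FPKM in DAC minipigs (SD, n = 3 each). The log2 fold change was -0.041 with a 95% interval from -0.26 to 0.18 (limma, adjusted P = 0.920). The spread of this row between minipigs of a group was smaller than that of nearly all genes, at the 1.09th percentile of the genes tested. Since the row could not be assigned to the β heavy chain alone, its level cannot show whether the α and β heavy chains shifted. The highest Pearson correlations with the MYH7 row over the 6 samples were those of ENSSSCG00000046588 (0.997), FBRS (0.996) and ARFRP1 (0.995), given as a description, since 148 of the genes tested had a correlation above 0.9 with it.

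MYH7B (ENSSSCG00000007288, chromosome 17 from 38360585 to 38389321), a heavy chain of slow muscle that hosts the microRNA gene MIR499, was at 47.4, 40.9 and 33.5 FPKM in the sham minipigs. In the DAC minipigs it was at 55.6, 38.1 and 51.3 FPKM. DAC replicates 4 and 6 lay above all sham values and DAC replicate 5 lay among them. The mean was 40.6 ± 6.94 FPKM in sham and 48.3 ± 9.13 FPKM in DAC minipigs (SD, n = 3 each). The log2 fold change was 0.24 with a 95% interval from -0.19 to 0.68 (limma, adjusted P = 0.723). Without DAC replicate 5 it was 0.40 and past the unadjusted threshold (limma, adjusted P = 0.574), whereas leaving out sham replicate 3 gave 0.12 and leaving out DAC replicate 4 gave 0.14. The 3' end of the MYH7B row overlaps TRPC4AP on the opposite strand, which was at 19.7 to 23.3 FPKM.

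The ventricular regulatory light chain MYL2 (ENSSSCG00000039710, chromosome 14 from 32196883 to 32213760) was at 4379.9, 4708 and 4489 FPKM in the sham minipigs and at 4881, 4149 and 5033 FPKM in the DAC minipigs. DAC replicate 5 was below and the other DAC minipigs were above all sham values. The mean was 4525 ± 167 FPKM in sham and 4688 ± 473 FPKM in DAC minipigs (SD, n = 3 each). The log2 fold change was 0.046 with a 95% interval from -0.22 to 0.31 (limma, adjusted P = 0.926), and it was -0.16 after quantile normalization (limma, adjusted P = 0.738). The ventricular essential light chain MYL3 (ENSSSCG00000011325, chromosome 13 from 29699304 to 29735586) was at 763, 639 and 749 FPKM in the sham minipigs and at 559, 569.5 and 719 FPKM in the DAC minipigs. DAC replicates 4 and 5 were below all sham values, and DAC replicate 6 was among them. The mean was 717 ± 68.1 FPKM in sham and 616 ± 89.6 FPKM in DAC minipigs (SD, n = 3 each). MYL3 had a log2 fold change of -0.22 and a 95% interval from -0.55 to 0.10 (limma, adjusted P = 0.672). Without DAC replicate 6 its log2 fold change was -0.34 and past the unadjusted threshold (limma, adjusted P = 0.531).

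The atrial essential light chain MYL4 (ENSSSCG00000017307, chromosome 12 from 16775471 to 16792213) showed the widest differences between animals. It was at 2.03, 3.79 and 1.08 FPKM in the sham minipigs and at 9.22, 0.780 and 17.6 FPKM in the DAC minipigs. DAC replicates 4 and 6 were above every sham minipig and DAC replicate 5 was below all of them. The mean was 2.30 ± 1.37 FPKM in sham and 9.20 ± 8.41 FPKM in DAC minipigs (SD, n = 3 each). The log2 fold change was 1.16 with a 95% interval from -0.74 to 3.07 (limma, adjusted P = 0.706). The size of this difference was at the 99.6th percentile of the genes tested, and the spread of MYL4 between minipigs of a group was at the 99.8th percentile. Without DAC replicate 5 the log2 fold change was 2.15 and past the unadjusted threshold (limma, adjusted P = 0.335), and without DAC replicate 6 it was 0.45 (limma, adjusted P = 0.864).

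Other genes of atrial muscle were set beside MYL4. Of 8 atrial markers outside the myosin genes, 3 had a row (SLN, NR2F2 and NR2F1). Their summed level was from 4.98 to 6.33 FPKM in the sham group and from 7.34 to 17.0 FPKM in the DAC group, but the groups overlapped in each gene. NR2F2 was at 5.44, 3.58 and 4.97 FPKM in the sham minipigs and at 4.93, 5.91 and 6.87 FPKM in the DAC minipigs. It was the largest part of the sum in every minipig except DAC replicate 6. Whether NR2F2 came from atrial muscle was not tested. The sum did not follow MYL4 in DAC replicate 5, where it was 7.55 FPKM, of which NR2F2 was 5.91 FPKM. SLN, which encodes the calcium pump inhibitor sarcolipin, was at 0.278, 1.01 and 0.403 FPKM in the sham minipigs and at 1.44, 0.932 and 9.83 FPKM in the DAC minipigs. The SLN value of DAC replicate 6 was the highest, as was its MYL4 value, and DAC replicate 4 had the second highest value of both genes. The log2 fold change of SLN was 1.27 (limma, adjusted P = 0.604), and leaving out DAC replicate 6 gave 0.50, against 1.74 when DAC replicate 5 was left out. NPPA, BMP10, KCNA5 and MYBPHL were not analysed here. The ventricular markers IRX4 and HEY2 summed to 39.8 to 61.2 FPKM in the sham group and to 35.8 to 63.9 FPKM in the DAC group. The part of atrial tissue in the MYL4 values was not tested.

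The light chains of smooth muscle and other cells differed little in their group means. MYL9 (ENSSSCG00000036402, chromosome 17 from 39788199 to 39795296) was at 206, 241 and 275 FPKM in the sham minipigs and at 233, 150.0 and 335 FPKM in the DAC minipigs. Its lowest and its highest value were both in the DAC group, with DAC replicates 5 and 6. The mean was 240.5 ± 34.6 FPKM in sham and 239 ± 92.9 FPKM in DAC minipigs (SD, n = 3 each), and the 95% interval of the log2 fold change was from -0.73 to 0.59 (limma, adjusted P = 0.956). The summed level of 8 smooth muscle markers outside the myosin light chains was from 159 to 199.98 FPKM in the sham group and from 185 to 202 FPKM in the DAC group, and it was 189 FPKM in DAC replicate 5 and 185 FPKM in DAC replicate 6. MYL9 was thus more than the sum of these markers in 5 of the 6 minipigs and below it in DAC replicate 5. The MYL6 row was at 24.1, 29.2 and 27.6 FPKM in the sham minipigs and at 23.8, 26.2 and 30.9 FPKM in the DAC minipigs, and its 95% interval was from -0.32 to 0.31 (limma, adjusted P = 0.997).

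The kinase MYLK3 (ENSSSCG00000036874, chromosome 6 from 37850754 to 37920768) was at 109, 82.7 and 104 FPKM in the sham minipigs and at 80.6, 113 and 99.5 FPKM in the DAC minipigs. The lowest and the highest value were both in the DAC group. The mean was 98.7 ± 14.1 FPKM in sham and 97.7 ± 16.2 FPKM in DAC minipigs (SD, n = 3 each). Its log2 fold change had a 95% interval from -0.41 to 0.37 (limma, adjusted P = 0.982).

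Ratios within an animal are not changed by a common scaling factor of the sample. Of 7 ratios considered, 5 could be formed, and each was compared on the log2 scale with a two-sided exact permutation test, whose smallest possible P with 3 minipigs against 3 is 0.1. The ratio of MYH7B to the MYH7 row was 0.0213 ± 0.00330 (SD, n = 3) in sham and 0.0260 ± 0.00404 (SD, n = 3) in DAC minipigs. The log2 difference was 0.29 (exact permutation P = 0.3). The ratio of the regulatory MYL2 to the essential MYL3 was 5.74, 7.37 and 5.99 in the sham minipigs and 8.73, 7.29 and 6.996 in the DAC minipigs. All DAC minipigs were above sham replicates 1 and 3, and sham replicate 2 was above DAC replicates 5 and 6. The log2 difference of this ratio was 0.27 (exact permutation P = 0.3), and 0.021 after quantile normalization (exact permutation P = 0.9). The ratio of the atrial MYL4 to the ventricular MYL3 was 0.00266, 0.00594 and 0.00145 in the sham minipigs and 0.0165, 0.00137 and 0.0245 in the DAC minipigs. Its log2 difference was 1.53 (exact permutation P = 0.4). DAC replicate 5 had the lowest ratio and the other DAC minipigs were above every sham minipig.

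The ratio of MYL9 to MYL6 was 8.91 ± 0.908 in sham and 8.78 ± 2.70 in DAC minipigs (SD, n = 3 each), with an exact permutation P of 0.9. The ratio of the kinase MYLK3 to its substrate MYL2 was 0.0219 ± 0.00385 in sham and 0.0212 ± 0.00548 in DAC minipigs (SD, n = 3 each), with an exact permutation P of 0.9. After Benjamini-Hochberg adjustment over the 5 ratios, P was from 0.667 to 0.9.

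**Figure D4:**
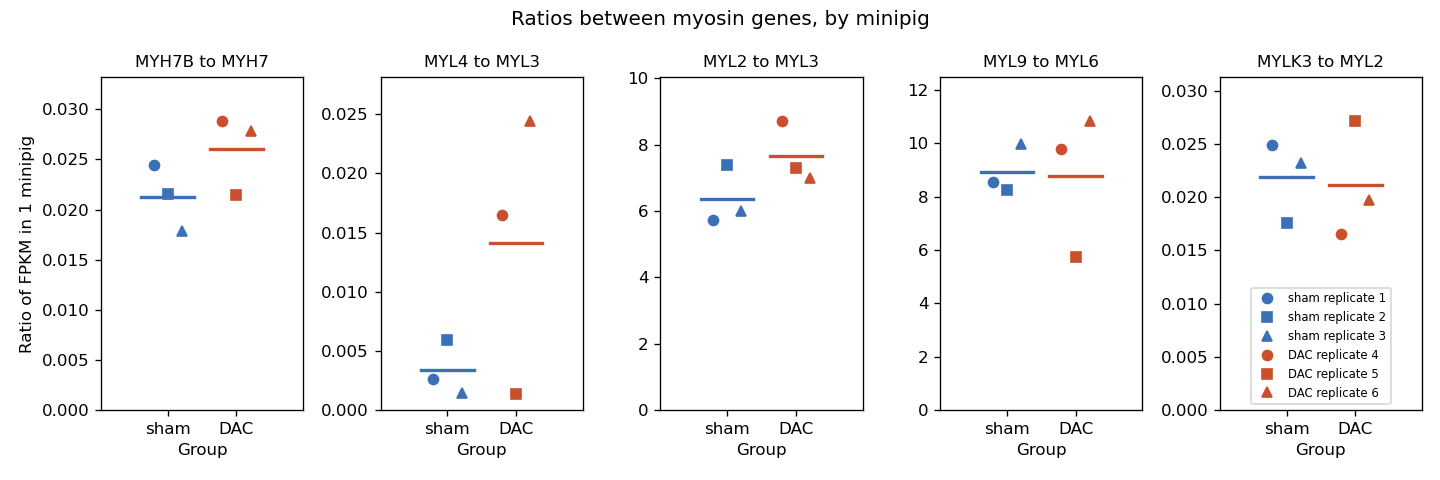
Ratio of FPKM between 2 myosin genes within each minipig, from an axis that starts at 0, with sham in blue, DAC in red and a line at the group mean (n = 3). The groups overlap in all 5 ratios, and the ratio of MYL4 to MYL3 is high in DAC replicates 4 and 6 alone.

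A wider list of 67 genes was read from the same fit, and 44 of them passed the filter on FPKM. Of these, 1 was higher and 3 were lower in the DAC group at an unadjusted P under 0.05, and none had an adjusted P under 0.05 by limma. Among all genes tested, 3.25% were called higher and 5.27% lower. The median log2 fold change of the 44 genes was -0.028, beside -0.016 over all genes tested. Of 12 other sarcomeric heavy and light chains, the skeletal muscle light chain MYL1 alone had a row, with 0.0453 to 1.23 FPKM, and was not tested.

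Of 4 tested genes of smooth muscle and non-muscle myosin II, 1 was lower in DAC and none was higher. This was MYH14 (chromosome 6 from 55113520 to 55200752), a non-muscle heavy chain, at 59.9, 58.9 and 60.0 FPKM in the sham minipigs and 48.7, 46.4 and 45.3 FPKM in the DAC minipigs. All DAC values were below all sham values. Its log2 fold change was -0.34 (standard error 0.091; limma, adjusted P = 0.495), and it was called whichever minipig was left out. The heavy chain of smooth muscle MYH11 was at 8.04 to 12.5 FPKM in the sham group and 9.40 to 15.5 FPKM in the DAC group, and the light chain MYL12A had a log2 fold change of 0.15 (limma, adjusted P = 0.812).

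Of 12 tested kinases, phosphatase subunits and their regulators, 1 was lower in DAC. PPP1R12B (chromosome 10 from 24465041 to 24637360), a myosin-targeting subunit of the phosphatase that acts on the regulatory light chain, was at 140.4, 117 and 156 FPKM in the sham minipigs and at 108, 109.7 and 111 FPKM in the DAC minipigs. The groups did not overlap, and the log2 fold change was -0.32 (standard error 0.13; limma, adjusted P = 0.584). It was no longer called when any minipig other than sham replicate 2 was left out, with log2 fold changes from -0.33 to -0.23, and was -0.43 without sham replicate 2. PPP1R12C had a log2 fold change of -0.30 (limma, adjusted P = 0.643) and did not pass the test. PPP1R12C did pass without DAC replicate 4 (log2 fold change -0.44) and was at -0.14 without DAC replicate 5. The smooth muscle kinase MYLK (log2 fold change 0.22; limma, adjusted P = 0.648) did not pass the test. Other phosphatase subunits were higher in DAC but not called. PPP1CB was at 45.8 to 48.0 FPKM in the sham group and 49.4 to 77.3 FPKM in the DAC group, without overlap. Its log2 fold change was 0.29 (limma, adjusted P = 0.662), and that of PPP1R12A was 0.24 (limma, adjusted P = 0.699). Of the 12 genes, 7 had a log2 fold change above 0 and 5 below.

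Of 13 tested partners and chaperones of the thick filament, SMYD2 (chromosome 9 from 129263520 to 129317325), a lysine methyltransferase, was the only one called, at 33.6, 19.6 and 30.9 FPKM in the sham minipigs and 19.1, 17.5 and 20.1 FPKM in the DAC minipigs. The groups overlapped through sham replicate 2, and the log2 fold change was -0.51 (standard error 0.20; limma, adjusted P = 0.581). SMYD2 was no longer called when any minipig other than sham replicate 2 was left out, with log2 fold changes from -0.56 to -0.37, and was -0.74 without sham replicate 2. MYOM3, a protein of the M-band, which was called without sham replicate 2 (log2 fold change -0.38), had a log2 fold change of -0.24 (limma, adjusted P = 0.684) and UNC45B, a chaperone of myosin folding, one of -0.16 (limma, adjusted P = 0.691). Of 15 transcription factors of the MYH6 and MYH7 genes, MEF2A (chromosome 1 from 138341153 to 138511311) was called higher, at 30.3, 30.2 and 28.8 FPKM in the sham minipigs and 40.7, 33.3 and 36.2 FPKM in the DAC minipigs. Its log2 fold change was 0.29 (standard error 0.11; limma, adjusted P = 0.563). MEF2A was no longer called when any minipig other than DAC replicate 5 was left out, with log2 fold changes from 0.22 to 0.30, and was 0.36 without DAC replicate 5. SRF had a log2 fold change of -0.21 (limma, adjusted P = 0.615) and NKX2-5 one of -0.28 (limma, adjusted P = 0.656), which was -0.15 without DAC replicate 5.

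**Figure D5:**
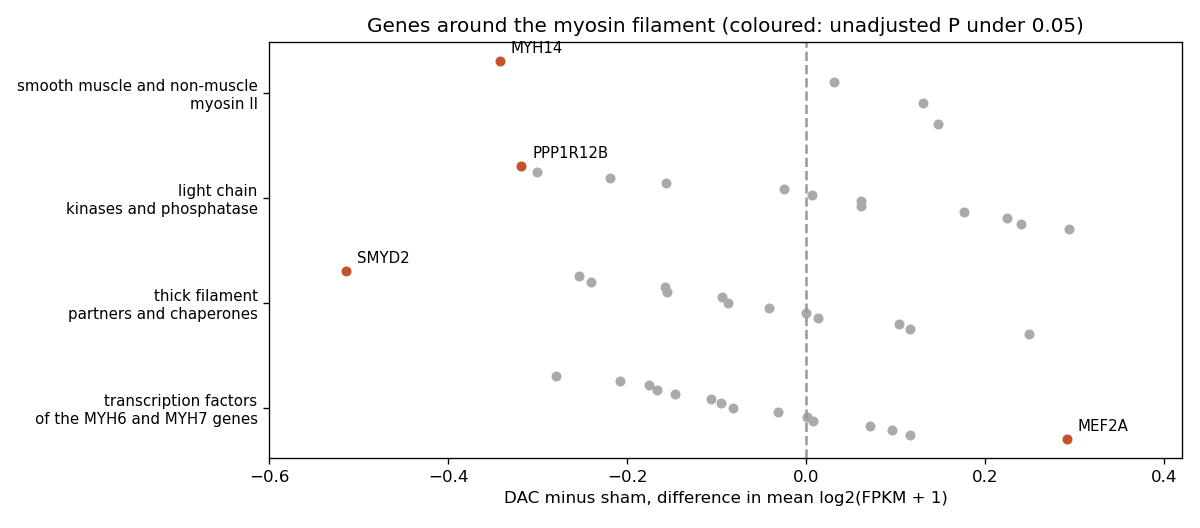
Difference between DAC and sham in mean log2(FPKM + 1) for the 44 tested genes of the wider list, by role, with 1 point per gene and n = 3 minipigs per group. The 4 coloured genes had an unadjusted limma P under 0.05, of which MEF2A was higher and MYH14, PPP1R12B and SMYD2 were lower in DAC.

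Levels of markers of other cells are given beside these values. The summed level of 7 fibroblast markers was from 476 to 549.7 FPKM in the sham group and from 683 to 772 FPKM in the DAC group. Of the 7, 5 were called higher in DAC (COL1A1, COL1A2, COL3A1, LUM and POSTN), beside 3.25% of all genes tested. DCN (log2 fold change -0.012) and PDGFRA (0.24) were not called. That of 6 endothelial markers was from 101 to 144 FPKM in sham and from 99.4 to 141 FPKM in DAC minipigs, with KDR and EMCN called higher and VWF called lower in DAC. That of 5 leukocyte markers was from 39.2 to 41.6 FPKM in sham and from 32.6 to 45.0 FPKM in DAC minipigs, with CD163 called lower. Of 8 smooth muscle markers, CNN1 was called higher and SMTN lower in DAC. Of 7 cardiomyocyte markers, RYR2 was called lower, with groups that overlapped. For comparison, 3.25% of all genes tested were called higher and 5.27% lower. These called markers were named after their values were seen, and their calls were not run under the alternatives. Of 9 skeletal muscle markers, 2 had a row, ACTA1 and CKM, which the heart also expresses, and their sum was from 2249 to 2713 FPKM in the sham group and from 1841 to 2822 FPKM in the DAC group. The part of these cells in the myosin values was not tested.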

How the data were processed

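RNA of ventricular tissue was sequenced from 3 sham and 3 DAC minipigs, with NEBNext Ultra libraries and paired-end reads on an Illumina HiSeq platform. The authors deposited 1 table of FPKM with a column per minipig, unpooled. HISAT2 and the build susScr11 are named in the submitters' processing notes, and the program that made the FPKM is not given in the sources used here. The highest value of a row was never under 0.500 FPKM. Through a table of gene identifiers, 520 rows without a name were named, and a further 1920 rows stayed without one. Positions of RefSeq genes are on Sscrofa11.1.

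R 4.3.3 with limma 3.58.1 (linear model, trend, pseudocount of 1, two-sided) and Python 3.11.15 with matplotlib 3.10.9 were used, after the steps were tested on simulated data. The labels call the samples independent, and no batch is given. The members and lists were chosen with earlier results of these data known. By rule, the genes named are all members, up to 3 genes with the smallest P per group of the wider list and the genes most like MYH7. The rule also names the 2 highest markers per cell type, given here mostly within sums, with SLN and NR2F2 also by minipig. Other single markers, PPP1CB and PPP1R12A were named after their values were seen. Alternatives were other filters, a pseudocount of 0.1, median scaling, quantile normalization, mitochondrially encoded genes left out, the variance of each gene on its own, sample weights and each minipig left out. The same settings for the wider list's genes and SLN were chosen after seeing the data. With 3 minipigs per group and unknown depth, precision is given by the spread between minipigs.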

Additional observations from a re-analysis of the deposited data

How the results depend on the processing

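The count of myosin rows called was 0 under every alternative except 2 without DAC replicate 5 and 1 without DAC replicate 6. The count over all genes was 939, and it was 579 with at least 5 FPKM and from 600 to 1029 with 1 minipig left out. Of the calls, 61.9% were lower in DAC, against 52.8% with median scaling, 44.8% without the mitochondrially encoded genes and 52.9% under quantile normalization. The count of the wider list was from 1 to 4 with 1 minipig left out, and 1 without sham replicate 1, sham replicate 3 or DAC replicate 6. No paired analysis was made, because different minipigs were randomly assigned to sham surgery or DAC and no pairing is described. Left-out minipigs gave log2 differences from 0.17 to 0.42 for MYH7B to MYH7, 0.74 to 2.82 for MYL4 to MYL3, 0.17 to 0.38 for MYL2 to MYL3, -0.25 to 0.21 for MYL9 to MYL6 and -0.26 to 0.099 for MYLK3 to MYL2. Quantile normalization gave 0.22 for the last and 0.021 for MYL2 to MYL3.

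Members near 0 changed sign. The log2 fold change was 0.0038 for MYH7 with mitochondrially encoded genes left out. After quantile normalization it was -0.16 for MYL2, 0.053 for MYL6, 0.016 for MYL9 and 0.059 for MYLK3. After median scaling it was 0.021 for MYL6 and 0.0070 for MYLK3, and with mitochondrially encoded genes left out 0.040 for MYL6 and 0.026 for MYLK3. With sample weights it was 0.028 for MYL6 and 0.0024 for MYL9. With 1 minipig left out it was from -0.0074 to 0.13 for MYL2, -0.10 to 0.080 for MYL6, -0.35 to 0.23 for MYL9 and -0.14 to 0.11 for MYLK3. Outside the members, MYH11 also changed sign, from -0.063 to 0.27, whereas MYL12A did not, from 0.017 to 0.29. The member MYH7B was from 0.12 to 0.40. MYH7B, MYL3, MYL4 and the ratios of MYH7B to MYH7, MYL4 to MYL3 and MYL2 to MYL3 kept their direction under every alternative run. PPP1R12B was not called with median scaling (log2 fold change -0.29), under quantile normalization (-0.25), without the mitochondrially encoded genes (-0.27) or with its variance estimated on its own, and SMYD2 was not called under the last. SLN was called with a pseudocount of 0.1 (log2 fold change 2.07), with sample weights (1.52) and without DAC replicate 5 (1.74), and was 0.50 without DAC replicate 6. SRF was called with its variance estimated on its own. The cause of these changes was not tested. The depth is unknown, so no limit from counting can be given for MYL4 or SLN.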
